A study of Homo sapiens with 6 samples.

Results

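The D cyclins CCND2 and CCND3, their kinases CDK4 and CDK6, and 6 inhibitors of these and related kinases (CDKN1A, CDKN1B, CDKN2A, CDKN2B, CDKN2C and CDKN2D) were followed through 6 RNA-seq libraries of THP1, a human leukaemia line. The 10 genes were chosen by name, and each gene's level is the sum over its transcripts, out of 34905 genes in the tables. Of the 10 genes, 7 passed the filter on low counts and were tested among 14497 genes. CCND2, CDKN2A and CDKN2B did not pass, and their counts are given below.

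D-type cyclins bind CDK4 and CDK6 and switch them on in G1, the phase before DNA replication. The active kinases phosphorylate the RB protein and its relatives, which then release the E2F factors that drive the genes of DNA replication. INK4 inhibitors (CDKN2A to CDKN2D) bind CDK4 and CDK6 alone, whereas CIP/KIP inhibitors (CDKN1A, also known as p21, and CDKN1B, also known as p27) act on a wider set of cyclin-kinase pairs. CDK6 with CCND3 is known to sustain many acute leukaemias, including those with an MLL fusion such as the one THP1 carries.

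The labels give 3 groups with 2 libraries each. ALKBH5 rescue is a knock-down with ALKBH5 restored, shALKBH5 is a hairpin knock-down of ALKBH5, which erases the m6A methyl mark on RNA, and shCtrl carries a control hairpin and is labelled wild-type in genotype. All groups share the line and its culture medium, and the sources used here give neither the hairpin sequences nor the construct used for the rescue. The sample titles number the libraries 1 and 2 within each group, and no label says whether the numbers mark separate cultures or days, so p-values measure a spread between libraries that may be technical.

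The targeted gene followed the replicate number and not the labels. In number 2, ALKBH5 had 968 CPM (the count scaled to a common library size) in the library labelled ALKBH5 rescue, 1003 in that labelled shALKBH5 and 1097 in that labelled shCtrl. In number 1, it had 13.6 CPM under the rescue label, 12.4 under the shALKBH5 label and 14.6 under the shCtrl label. By number the log2 fold change of ALKBH5 was 6.24 (SE 0.11, edgeR adjusted p = 1.51e-09). Every library is therefore named by its label below, with no direction drawn from the label alone, and the members are also compared by number. Estimated counts totalled 16150754 to 19477197 in number 2 and 14534386 to 24857373 in number 1, so depth overlapped. The 10 monocytic or myeloid markers summed to 3137 to 3574 CPM in number 2 and 2860 to 3142 CPM in number 1, with none of them at 0 in any library. Single markers went both ways. By number, edgeR called 4 higher and 3 lower at adjusted p at most 0.05 and did not call 3, against 22.8% higher and 22.6% lower of all tested genes. LYZ averaged 1339 CPM in number 2 and 934 in number 1, while CD14 averaged 136 and 224 CPM and ITGAM 184 and 289 CPM. Of the 4 T and NK cell markers only NKG7 exceeded 1 CPM, and their sum was 14.3 to 18.5 CPM in number 2 and 18.8 to 20.9 CPM in number 1, with CD3D at 0 in every library. The 4 B cell markers summed to 8.98 to 10.4 CPM in number 2 and 5.78 to 6.94 CPM in number 1, and MS4A1 was at 0 in 5 of 6 libraries. The 5 erythroid and megakaryocytic markers stayed under 1 CPM in sum in every library, and HBA1 and HBB were at 0 throughout. The part of these markers, and of the difference in ALKBH5, in the differences by number was not tested.

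Compared per length, in TPM (the deposited measure scaled to transcript length and library size), CCND3 was the most abundant member, and of the 2 D cyclins among the members the only one at a measurable level. Its median over the 6 libraries was 357 TPM with a range of 339 to 374 TPM. CDK4 followed at a median of 214 TPM (167 to 241), CDKN2C at 157 TPM (119 to 194) and CDKN1A at 142 TPM (117 to 173). Over the 6 libraries together the ranges of CDK4 and CDKN2C overlapped, as did those of CDKN2C and CDKN1A. Within each number CDKN2C and CDKN1A did not overlap, and their order reversed between the numbers. CDKN2C had 190 to 194 TPM and CDKN1A 117 to 119 TPM in number 2. In number 1 CDKN2C had 119 to 124 TPM and CDKN1A 166 to 173 TPM. CDK4 lay above both in number 1, at 231 to 241 TPM, and overlapped CDKN2C in number 2, at 167 to 197 TPM. CDK6 was lower, at a median of 54.1 TPM (35.5 to 61.5). CDKN2D (23.6 TPM, 14.7 to 33.2) and CDKN1B (20.7 TPM, 16.0 to 24.99) overlapped with each other and lay below CDK6. Summed over transcripts, CDK4 thus stood above CDK6 in level in every library. The order is one of gene sums, and CDK4 was spread over many transcripts. CDK4-201 averaged 74.4 TPM in number 2 and 83.4 TPM in number 1, which was 40.4% and 35.6% of the gene's TPM. CDKN1A-201 averaged 98.2 TPM in number 2 and 139 TPM in number 1, and CDKN2C-203 averaged 164 and 84.5 TPM. Transcripts annotated as protein-coding held 68.4% to 77.7% of the TPM of CDK4.

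By replicate number, the 2 detected INK4 inhibitors rose in number 2, CDKN1A and CDK4 fell, and the other 3 tested members did not pass the test. Adjusted p at most 0.05 in edgeR's quasi-likelihood test was the threshold, with the labelled group in the model and all tested genes in the adjustment. Of the 7 tested members, 4 passed, 2 in each direction. Among all tested genes 45.4% passed, 22.8% higher and 22.6% lower, a share close to that of the members. The median log2 fold change of the 7 was 0.23, against 0.01 over all tested genes. The CPM of the 2 numbers did not overlap for 5 of the 7 members, 3 higher and 2 lower, against 57.7% of all tested genes, 28.6% higher and 29.1% lower. The difference had 1 sign in all 3 labelled groups for 6 of the 7, against 67.6% of all tested genes. In bulk RNA a change in the mix of cells, for instance in the share of cells in G1, and a change in RNA per cell cannot be told apart.

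**Figure D1:**
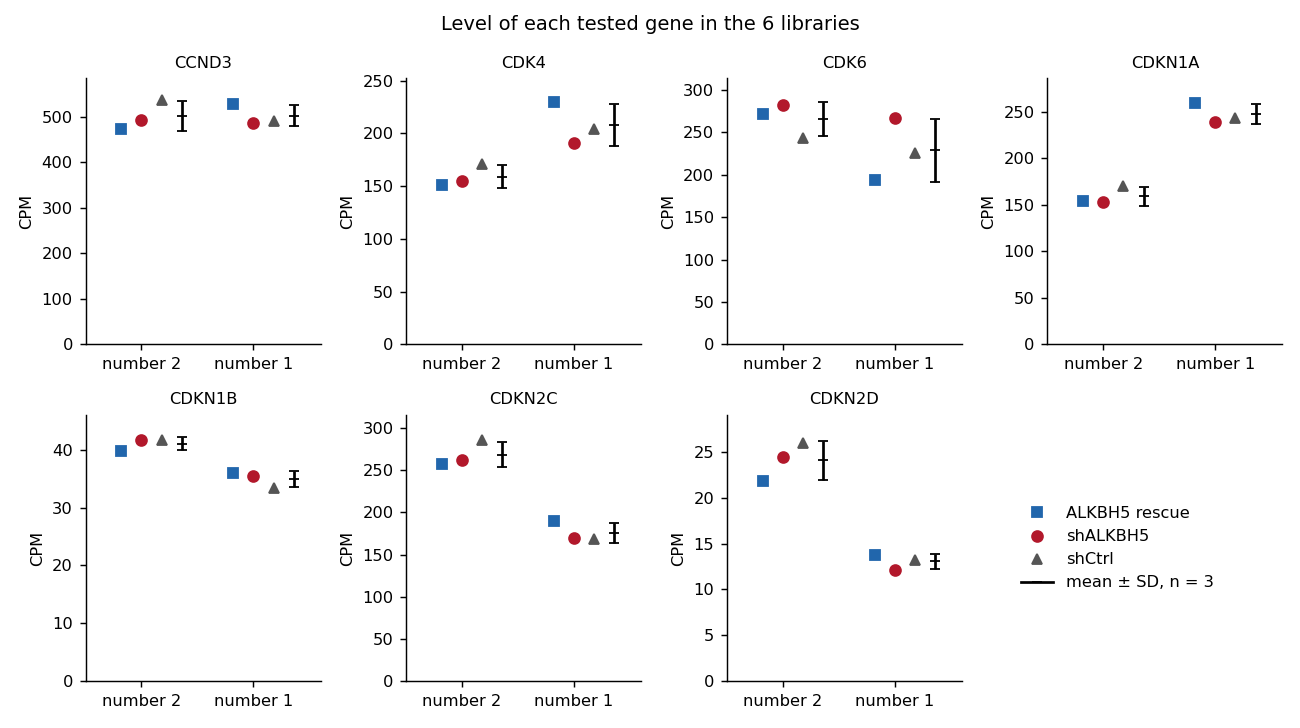
Level of the 7 tested members in CPM in each library, with number 2 left of number 1 and the groups told apart by colour and marker; black bars are the mean and SD of 3 libraries. CDKN2C and CDKN2D lie higher in number 2, CDKN1A and CDK4 lie lower, and CCND3 and CDK6 overlap between the numbers.

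CDKN2D and CDKN2C encode p19INK4d and p18INK4c, small ankyrin-repeat proteins that hold CDK4 and CDK6 in an inactive form. The bases before their starts are shown because the transcripts of each gene begin at different places, and their mean TPM shares, given below, differed by number. The fitted changes of the CDKN2C transcripts differed in sign, whereas both CDKN2D transcripts had positive ones, and none of them passed in edgeR. The sequences are from the RefSeq windows of GRCh38.p14, cut before the first base of the GENCODE transcript named, and are the bases before the transcript, read 5′ to 3′ on the gene's strand. For CDKN2C-203 only 30 bases are shown, because the far end of its window touches an annotated exon. None of the 5 GC boxes counted below for that window lies wholly within these 30 bases. Capitals mark a GC box, which reads GGGCGG and is bound by factors of the SP1 family. They also mark a CCAAT box, spelled as its name and bound by the factor NF-Y. The last motif in capitals is the E-box of the MYC family, which reads CACGTG. Each was searched on both strands, and no match overlapped another motif.
CDKN2D-201, chr19:10569060-10569229, minus strand: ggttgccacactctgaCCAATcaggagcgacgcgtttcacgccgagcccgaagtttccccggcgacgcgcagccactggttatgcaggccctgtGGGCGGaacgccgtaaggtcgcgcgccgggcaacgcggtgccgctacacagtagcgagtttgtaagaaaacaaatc
CDKN2C-201, chr1:50960495-50960744, plus strand: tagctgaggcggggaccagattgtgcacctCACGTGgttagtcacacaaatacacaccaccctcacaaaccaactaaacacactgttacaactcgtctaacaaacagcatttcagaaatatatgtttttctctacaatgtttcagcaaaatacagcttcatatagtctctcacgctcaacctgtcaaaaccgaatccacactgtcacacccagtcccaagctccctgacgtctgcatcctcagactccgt
CDKN2C-203, chr1:50968665-50968694, plus strand: cccggccttcccgctcccgcggcgctgcaa
Over the 250 bases before the RefSeq start, the CDKN2D window held 2 GC boxes and 1 CCAAT box. That before the upstream CDKN2C start was 45.6% G and C and held 1 E-box and no GC box, while that before the start near CDKN2C-203 was 77.2% G and C and held 5 GC boxes. Of 35116 such windows, 42.6% held a GC box, 32.0% a CCAAT box and 6.34% an E-box. The E2F motif (TTTCGCGC or TTTGGCGC) was in 0.968% of all windows and in none of the windows of these genes. A match is a description of the letters and not a binding site.

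CDKN2D (chromosome 19, 10566462 to 10569059) had the largest fitted change among the 7. Number 2 gave 21.8 CPM under the rescue label, 24.5 under the shALKBH5 label and 26.0 under the shCtrl label. Number 1 gave 13.8 CPM under the rescue label, 12.2 under the shALKBH5 label and 13.2 under the shCtrl label. All libraries of number 2 lay above all of number 1, whatever the label. CDKN2D averaged 24.1 ± 2.09 CPM in number 2 and 13.1 ± 0.816 CPM in number 1 (SD, n = 3 each), a ratio of 1.84. Its log2 fold change was 0.88 (SE 0.12, 95% interval 0.61 to 1.15, edgeR adjusted p = 0.000436).

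CDKN2C (chromosome 1, 50960745 to 50974633) rose with it. It had 258 CPM under the rescue label, 262 under the shALKBH5 label and 286 under the shCtrl label in number 2. The number 1 libraries held 189.9 CPM under the rescue label, 169 under the shALKBH5 label and 168 under the shCtrl label. The numbers did not overlap, and the gap was narrowest within the rescue label, where log2 CPM differed by 0.44, and widest within the shCtrl label, where it differed by 0.77. CDKN2C averaged 269 ± 15.2 CPM in number 2 and 176 ± 12.3 CPM in number 1 (SD, n = 3 each). The log2 fold change was 0.61 (SE 0.09, 95% interval 0.42 to 0.81, edgeR adjusted p = 0.00053).

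The members of the CIP/KIP pair did not move together. CDKN1A, an inhibitor known to accumulate as monocytic cells mature, lies on chromosome 6 from 36676460 to 36687339. Its main transcript, CDKN1A-201, starts after this stretch, shown because that transcript held most of the gene's TPM.
CDKN1A-201, chr6:36678464-36678657, plus strand: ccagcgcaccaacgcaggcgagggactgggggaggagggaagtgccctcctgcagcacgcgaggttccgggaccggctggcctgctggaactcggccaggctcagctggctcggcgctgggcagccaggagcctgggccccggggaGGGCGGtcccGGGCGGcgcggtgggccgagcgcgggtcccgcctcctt
The capitals mark 2 of the 4 GC boxes in the 250 bases before its RefSeq start. CDKN1A had 154 CPM under the rescue label, 153 under the shALKBH5 label and 170.3 under the shCtrl label in number 2. In number 1 it had 259 CPM under the rescue label, 239 under the shALKBH5 label and 244 under the shCtrl label. Every number 2 library was below every number 1 library, with averages of 159 ± 9.88 CPM in number 2 and 247 ± 10.5 CPM in number 1 (SD, n = 3 each). The log2 fold change of CDKN1A was -0.64 (SE 0.08, 95% interval -0.82 to -0.45, edgeR adjusted p = 0.000307).

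CDKN1B (chromosome 12, 12715058 to 12722371), which restrains CDK2 and is destroyed through the SKP2 ubiquitin ligase, had 39.9 CPM under the rescue label, 41.6 under the shALKBH5 label and 41.8 under the shCtrl label in number 2. The values in number 1 were 35.9 CPM under the rescue label, 35.4 under the shALKBH5 label and 33.4 under the shCtrl label. The numbers did not overlap, but the gap was small, and the log2 fold change of 0.23 (SE 0.10, 95% interval 0.01 to 0.46) gave an edgeR adjusted p of 0.0788. The call for CDKN1B turned on the processing. The adjusted p was 0.027 with limma on the deposited TPM, 0.0278 with no term for group, 0.0237 without the rescue library of number 1 and 0.0237 without that of number 2.

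CDK4 (chromosome 12, 57747727 to 57756013), the kinase most cells use with D cyclins, had 151 CPM under the rescue label, 154 under the shALKBH5 label and 171 under the shCtrl label in number 2. Number 1 held 229 CPM under the rescue label, 190.5 under the shALKBH5 label and 204 under the shCtrl label. The numbers did not overlap, and the within-label difference in log2 CPM was -0.60 under the rescue label, -0.30 under the shALKBH5 label and -0.25 under the shCtrl label. CDK4 averaged 159 ± 10.6 CPM in number 2 and 208 ± 19.8 CPM in number 1 (SD, n = 3 each), with a log2 fold change of -0.39 (SE 0.09, 95% interval -0.59 to -0.18, edgeR adjusted p = 0.00739). Without the shALKBH5 library of number 1 the adjusted p was 0.0545, and without that of number 2 it was 0.0554. TSPAN31 overlaps CDK4 on the opposite strand and averaged 16.5 CPM in number 2 and 11.8 CPM in number 1. MARCH9 also overlaps it and averaged 17.8 CPM in number 2 and 16.5 CPM in number 1. The sources used here do not say whether the counting used strand, so reads shared with these genes cannot be told apart.

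CDK6 (chromosome 7, 92604921 to 92836594), the kinase that blood progenitors use most, had 272 CPM under the rescue label, 282 under the shALKBH5 label and 244 under the shCtrl label in number 2. The number 1 values were 194 CPM under the rescue label, 268 under the shALKBH5 label and 226 under the shCtrl label. The numbers overlapped, since the number 1 library labelled shALKBH5 lay above the number 2 library labelled shCtrl. The log2 fold change was 0.23 (SE 0.10, 95% interval 0.01 to 0.44, edgeR adjusted p = 0.0843). It passed the threshold only with no filter on low counts (adjusted p = 0.0379), among the alternatives run.

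CCND3 (chromosome 6, 41934933 to 42050357), a D cyclin prominent in blood cells, did not pass the test by number. It had 472 CPM under the rescue label, 493 under the shALKBH5 label and 537 under the shCtrl label in number 2. In number 1 it had 528 CPM under the rescue label, 486 under the shALKBH5 label and 490.4 under the shCtrl label. The highest and the lowest library were both number 2. CCND3 averaged 501 ± 33.3 CPM in number 2 and 501 ± 23.0 CPM in number 1 (SD, n = 3 each). The log2 fold change had a 95% interval from -0.20 to 0.19 (edgeR adjusted p = 0.979), so the data bound the difference within that range. On the TPM scale the CCND3 values did not overlap, at 365 to 374 TPM in number 2 and 339 to 348 TPM in number 1. There limma gave a log2 difference of 0.10 (adjusted p = 0.144), beside a median of 0.11 over all genes on the same scale.

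**Figure D2:**
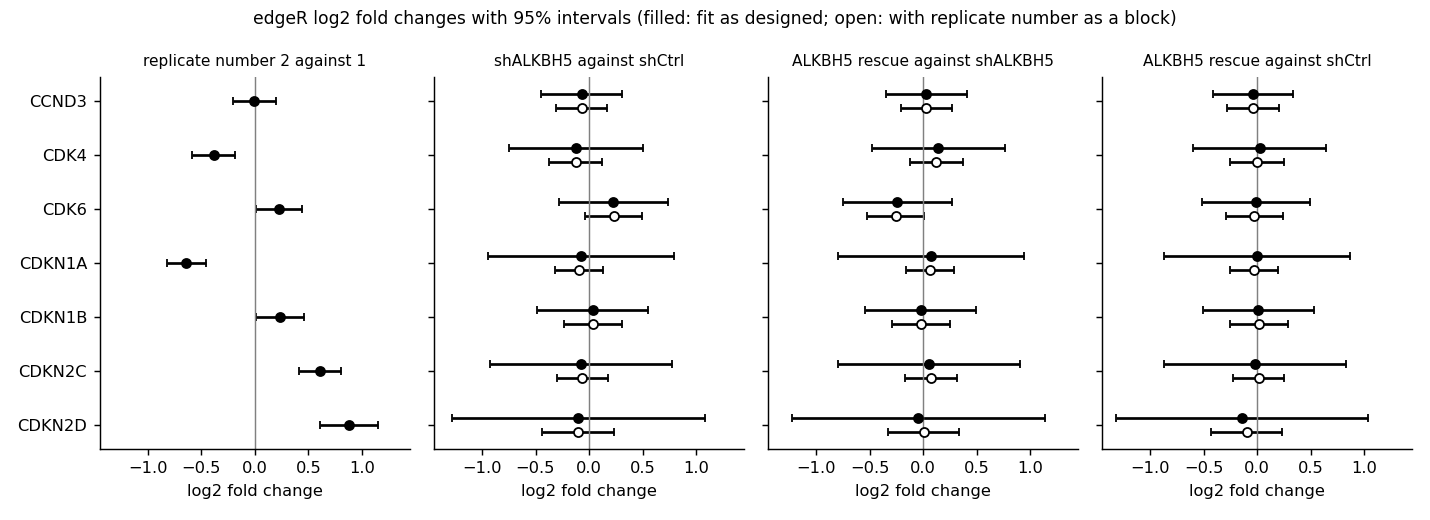
Log2 fold change of the 7 tested members with 95% intervals from edgeR in 4 comparisons; filled points are the fits as designed and open points those with the replicate number as a block. Intervals for CDKN2D, CDKN2C, CDKN1A and CDK4 lie clear of 0 by number, and those of CDK6 and CDKN1B start at 0.01 without a call after adjustment. Every interval of the labelled groups includes 0, with or without the block.

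CCND2 and the INK4 pair at chromosome 9p21 were at or next to nothing. CDKN2A, which encodes p16INK4a and ARF (21967753 to 21995301), had 0 counts in all 6 libraries over its 14 transcripts. A count of 0 allows up to 3 counts, which is 0.130 to 0.217 CPM per library and 0.0277 CPM over the 6 together. CDKN2B, which encodes p15INK4b (22002903 to 22009363), had 1 count in the number 2 library labelled shALKBH5 and 0 in the other 5. CCND2 (chromosome 12, 4273772 to 4305350) had 3 counts in the number 1 library labelled ALKBH5 rescue, 1 in the number 2 library labelled shCtrl, 2 in the number 1 library labelled shCtrl, and 0 elsewhere. No direction was drawn for these genes. These limits cover counting error only.

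Neighbours of CDKN2A and CDKN2B on the short arm of chromosome 9 were listed to set those zeros in context. MTAP, a purine salvage enzyme next to CDKN2A, had 1.61 to 2.39 CPM, and DMRTA1 on the other side had 0 to 0.185 CPM. KLHL9 had 0.0723 to 0.525 CPM. FOCAD, farther out, had 51.5 to 66.5 CPM, and HACD4, a fatty acid elongation enzyme between FOCAD and KLHL9, had 17.6 to 48.2 CPM. CDKN2B-AS1 was not analysed here. By number, 3 of the 5 tested neighbours rose and none fell, with a median log2 fold change of 0.31, against 22.8% higher, 22.6% lower and a median of 0.01 over all tested genes. HACD4 (log2 fold change 1.10, adjusted p = 0.000307), MLLT3 (0.70, adjusted p = 0.0145) and FOCAD (0.31, adjusted p = 0.0156) passed in edgeR, and ELAVL2 did not (0.28, adjusted p = 0.48). On the deposited TPM 1 of the 5 was called higher (20.4% of all genes). The same held without the shALKBH5 library of number 1 (13.9%) or of number 2 (14.6%).

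By label, none of the 7 tested members passed the test in any of the 3 comparisons, which share libraries with each other. The design asks whether these genes change when ALKBH5 is knocked down and return when it is restored. The labelled comparisons cannot answer that, because ALKBH5 itself did not follow the labels. For shALKBH5 against shCtrl, ALKBH5 differed in log2 CPM by -0.13 in number 2 and by -0.24 in number 1. For ALKBH5 rescue against shALKBH5 it differed by -0.05 in number 2 and by 0.13 in number 1. The response to a loss of ALKBH5 was therefore not tested by label. In edgeR 0 of the 14497 tested genes passed for shALKBH5 against shCtrl (0%), 0 for ALKBH5 rescue against shALKBH5 (0%) and 0 for ALKBH5 rescue against shCtrl (0%). Unadjusted p under 0.05 was reached by 38 genes for shALKBH5 against shCtrl, 43 for ALKBH5 rescue against shALKBH5 and 46 for ALKBH5 rescue against shCtrl, and DESeq2 and limma-voom called 0 in each. With replicate number as a block, 1 gene passed for shALKBH5 against shCtrl (0.0069%), 0 for ALKBH5 rescue against shALKBH5 (0%) and 1 for ALKBH5 rescue against shCtrl (0.0069%), none of them a member. The members' median log2 fold change was -0.07 for shALKBH5 against shCtrl (-0.03 over all tested genes), 0.03 for ALKBH5 rescue against shALKBH5 (0.01) and -0.01 for ALKBH5 rescue against shCtrl (-0.01).

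CDK6 had the largest fitted difference of the 7 for shALKBH5 against shCtrl and for ALKBH5 rescue against shALKBH5, but not for ALKBH5 rescue against shCtrl. There it was -0.01 for CDK6 and -0.14 for CDKN2D, or -0.03 for CDK6 and -0.10 for CDKN2D with the block. It averaged 275 ± 10.5 CPM under the shALKBH5 label and 235 ± 12.7 CPM under the shCtrl label (SD, n = 2 each). Its level was higher under the shALKBH5 label by 0.21 in log2 CPM in number 2 and by 0.24 in number 1. The fitted log2 fold change for CDK6 was 0.23 (SE 0.21, 95% interval -0.28 to 0.73, edgeR adjusted p = 1), and with the block 0.23 (SE 0.12, interval -0.04 to 0.49, adjusted p = 0.978). Under the rescue label CDK6 averaged 233 ± 55.1 CPM, against the same 275 CPM under the shALKBH5 label, with log2 CPM differences of -0.06 in number 2 and -0.47 in number 1. The rescue library of number 1, at 194 CPM, was the lowest of the 6. The fit with the block gave -0.26 for rescue against shALKBH5 (95% interval -0.52 to 0.01, adjusted p = 1), and it passed when the rescue library of number 2 was also left out, at -0.46 (adjusted p = 0.00246), in a fit that called 1005 genes (6.74%). No other member passed in any labelled comparison under any alternative run.

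The intervals of the other members bound how large a labelled difference these data allow, and the bound depends on the fit. Without the block, as designed, the intervals for shALKBH5 against shCtrl were wider for each of these members. They ran from -0.45 to 0.31 for CCND3, from -0.75 to 0.50 for CDK4 and from -0.95 to 0.79 for CDKN1A. Those of CDKN1B ran from -0.48 to 0.55 and those of CDKN2C from -0.92 to 0.77. CDKN2D had the widest, with a lower end of -1.28. For shALKBH5 against shCtrl, the 95% intervals with the block ran from -0.31 to 0.17 for CCND3, from -0.37 to 0.12 for CDK4, from -0.32 to 0.13 for CDKN1A, from -0.23 to 0.31 for CDKN1B, from -0.30 to 0.18 for CDKN2C and from -0.44 to 0.23 for CDKN2D, on the log2 scale. The sign was the same in both numbers for 5 of the 7 members in that comparison (56% of all tested genes), for 2 of 7 in ALKBH5 rescue against shALKBH5 (44.6%) and for 0 of 7 in ALKBH5 rescue against shCtrl (34.7%).

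Among 12 other genes of the cycle (cyclins, kinases, MNAT1, CDC25A and the inhibitor CDKN1C), 5 rose by number, 2 fell and 5 did not pass. Their median log2 fold change was 0.33. Over all tested genes 22.8% rose, 22.6% fell and the median was 0.01. CCND1, the third D cyclin, averaged 14.5 ± 0.851 CPM in number 2 and 36.4 ± 1.22 CPM in number 1 (log2 fold change -1.33, SE 0.11, edgeR adjusted p = 2.74e-05). CCNA1, a cyclin A known from the germ line and from myeloid leukaemia, averaged 14.2 ± 1.502 CPM in number 2 and 35.1 ± 2.18 CPM in number 1 (-1.31, SE 0.12, adjusted p = 5.37e-05). CDK2, the kinase that CDKN1A and CDKN1B restrain, averaged 88.5 ± 5.06 CPM in number 2 and 35.01 ± 5.43 CPM in number 1 (1.34, SE 0.12, adjusted p = 4.02e-05). Its partner CCNE1, cyclin E1, averaged 24.7 ± 0.416 CPM in number 2 and 10.0 ± 1.19 CPM in number 1 (1.30, SE 0.12, adjusted p = 5.95e-05). CCND1 fell while CCND3 did not pass, and CDK4 fell while CDK2 rose, but the changes of these genes were not tested against each other.

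Of the RB family, E2F and DP genes, which stand directly downstream of CDK4 and CDK6, 7 of 13 rose, 3 fell and 3 did not pass, with a median of 0.42, against 22.8% higher, 22.6% lower and a median of 0.01 over all tested genes. RBL1, the RB relative p107, averaged 61.7 ± 7.34 CPM in number 2 and 24.3 ± 1.88 CPM in number 1 (log2 fold change 1.34, edgeR adjusted p = 3.28e-05). E2F1, an activator, averaged 93.2 ± 7.10 CPM in number 2 and 60.5 ± 3.69 CPM in number 1 (0.62, adjusted p = 0.000636). E2F8, an atypical repressor, rose by 0.70 (adjusted p = 0.000423), and E2F4, which works mainly with RBL1 and RBL2 as a repressor, fell by 0.62 to 148 ± 4.74 CPM in number 2, against 228 ± 10.96 CPM in number 1 (adjusted p = 0.000317). The summed level of the 13 genes overlapped, at 1045 to 1091 CPM in number 2 and 1039 to 1081 CPM in number 1.

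Of 13 replication genes known as E2F targets, 7 rose, 2 fell and 4 did not pass, with a median of 0.29, beside 22.8% higher, 22.6% lower and a median of 0.01 over all tested genes. Their summed level was 3136 to 3346 CPM in number 2 and 2926 to 2997 CPM in number 1. RRM2, the small subunit of ribonucleotide reductase, averaged 239 ± 6.46 CPM in number 2 and 132 ± 2.61 CPM in number 1 (log2 fold change 0.85, edgeR adjusted p = 5.16e-05). TK1, thymidine kinase, averaged 162 ± 12.1 CPM in number 2 and 92.7 ± 4.01 CPM in number 1 (0.80, adjusted p = 0.000122). CDT1, which loads the MCM helicase, had a log2 fold change of -0.38 (edgeR adjusted p = 0.00456). Without the shALKBH5 library of number 1, or that of number 2, 3 of the 13 were called higher and 0 lower. Of all genes, 13.9% were called higher and 12.4% lower without that of number 1, and 14.6% higher and 12.3% lower without that of number 2. With no filter 1 of the 13 was called lower (13.3% of all genes). The same held without the rescue library of number 1 (22.4%) or of number 2 (22.6%). On the deposited TPM 0 were called lower (13.1% of all genes), and CDT1 had -0.14 (adjusted p = 0.129).

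Of 10 genes that turn over or fold cyclins, kinases and inhibitors, 1 rose by number, 2 fell and 7 did not pass, with a median of 0.15. The 3 called of 10 compare with 45.4% called and a median of 0.01 over all tested genes. SKP2, which targets CDKN1B for destruction, averaged 80.1 ± 2.22 CPM in number 2 and 117 ± 1.79 CPM in number 1 (log2 fold change -0.55, edgeR adjusted p = 0.000584). CDC37, the chaperone partner that loads CDK4 and CDK6 onto HSP90, averaged 246 ± 21.2 CPM in number 2 and 343 ± 18.5 CPM in number 1 (-0.48, adjusted p = 0.00206). FBXW7, which targets cyclin E, rose by 0.47 (adjusted p = 0.00912), and GSK3B, whose mark promotes cyclin D export and decay, had 0.32 (adjusted p = 0.0509). AMBRA1, the adaptor that sends D cyclins for degradation, did not pass at 0.07 (adjusted p = 0.596). The count called higher was 0 without the shALKBH5 library of number 1 (13.9% of all genes higher) or of number 2 (14.6%). It was 4 with no filter (16.4%) or no group term (25%). Leaving out the shCtrl library of number 1 (21.3%) or of number 2 (21.2%), or either rescue library (23%), gave 3.

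Of 12 transcription factors known to act on the CDKN1A promoter or on monocytic maturation, 3 rose, 6 fell and 3 did not pass, with a median of -0.23, where 22.8% of all tested genes rose, 22.6% fell and the median was 0.01. SP1, which binds GC boxes, averaged 152 ± 11.1 CPM in number 2 and 105 ± 8.82 CPM in number 1 (log2 fold change 0.54, edgeR adjusted p = 0.00165), and FOXO3 rose by 0.48 (adjusted p = 0.00438). MYC, which represses CDKN1A, averaged 127 ± 5.23 CPM in number 2 and 191 ± 13.2 CPM in number 1 (-0.59, adjusted p = 0.000604). The count of factors called lower was 2 without the shALKBH5 library of number 1 (12.4% of all genes lower) or of number 2 (12.3%). It was 2 over protein-coding transcripts alone (19.2%) and 1 on the deposited TPM (13.1%). By label, none of the genes of these lists passed in edgeR.

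**Figure D3:**
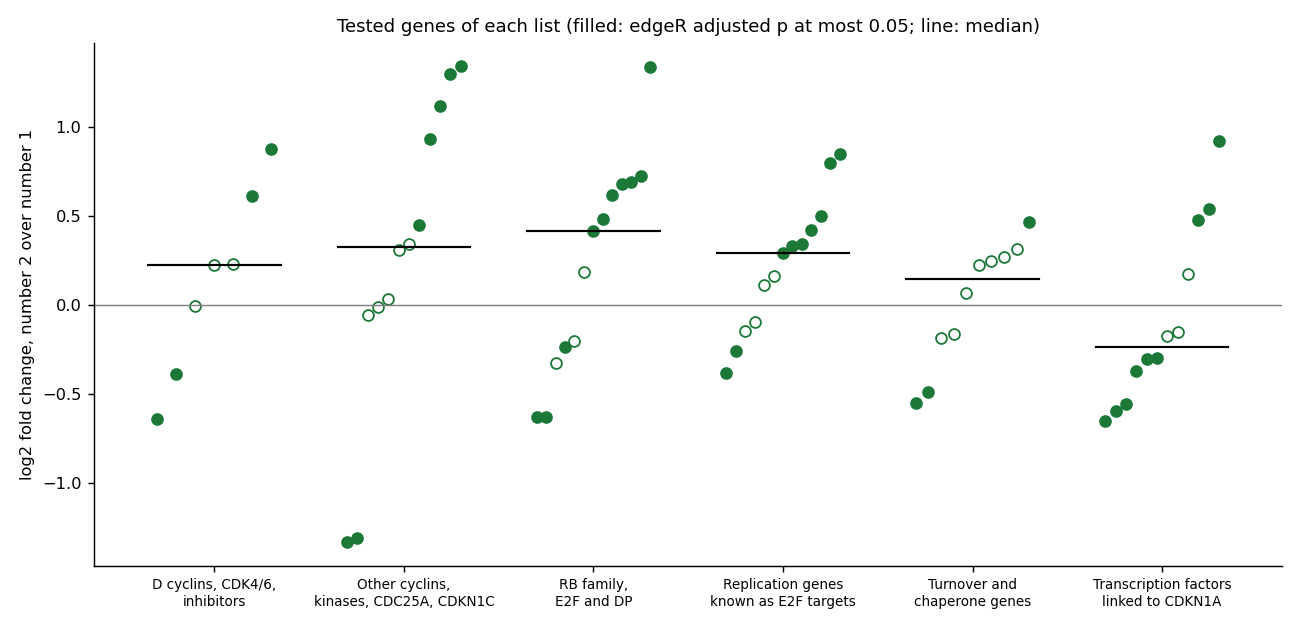
Log2 fold change by replicate number, number 2 over number 1, of each tested gene in the members and 5 lists; filled circles passed the edgeR test and lines are medians. RB family, E2F and DP genes have a median of 0.42 and transcription factors linked to CDKN1A one of -0.23.

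Within CDKN2C only 1 of 3 transcripts had a higher mean in number 2. CDKN2C-203, which begins at the GC-rich start shown above (length 2086), had 165 TPM under the rescue label, 163 under the shALKBH5 label and 165 under the shCtrl label in number 2. In number 1 it had 88.8 TPM under the rescue label, 83.5 under the shALKBH5 label and 81.2 under the shCtrl label. Its share of the gene's TPM was 85.6 ± 0.581% in number 2 and 69.4 ± 2.04% in number 1 (SD, n = 3 each), with no overlap. CDKN2C-202, which starts farther downstream (length 1220), averaged 24.4 ± 1.28 TPM in number 2 and 32.9 ± 2.62 TPM in number 1, so its share was 12.7 ± 0.543% in number 2 and 27.1 ± 2.25% in number 1. CDKN2C-201, from the upstream start, held 1.68 ± 0.18% in number 2 and 3.54 ± 0.829% in number 1. The fitted log2 fold changes had opposite signs, at 0.88 (SE 0.10, edgeR adjusted p = 0.0679) for CDKN2C-203 and -0.51 (SE 0.13, adjusted p = 0.147) for CDKN2C-202, and neither passed the test.

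CDKN2D-201, the longer-reaching of its 2 transcripts at the 5′ end, had 23.4 TPM under the rescue label, 22.8 under the shALKBH5 label and 24.8 under the shCtrl label in number 2. Number 1 gave 9.95 TPM under the rescue label, 9.20 under the shALKBH5 label and 10.96 under the shCtrl label. It averaged 23.7 ± 1.05 TPM in number 2 and 10.0 ± 0.887 TPM in number 1, against 8.67 ± 1.29 TPM in number 2 and 5.45 ± 0.172 TPM in number 1 for CDKN2D-202. The share of CDKN2D-201 was 73.2 ± 3.39% in number 2 and 64.7 ± 2.63% in number 1 (SD, n = 3 each). The fitted log2 fold change was 1.16 (SE 0.15, edgeR adjusted p = 0.0737) for CDKN2D-201 and 0.58 (SE 0.21, adjusted p = 0.241) for CDKN2D-202.

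For CCND3 the gene level overlapped between the numbers in CPM but not in TPM. The TPM shares of CCND3-203 and CCND3-213 did not overlap either. The bases before its main start and before a distal start are shown because these transcripts begin there, with capitals as above.
CCND3-203, chr6:41941849-41942058, minus strand: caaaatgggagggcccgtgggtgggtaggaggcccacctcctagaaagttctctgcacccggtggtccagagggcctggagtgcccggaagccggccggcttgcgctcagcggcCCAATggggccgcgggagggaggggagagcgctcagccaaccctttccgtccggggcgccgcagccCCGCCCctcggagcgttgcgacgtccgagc
CCND3-213, chr6:42048709-42048738, minus strand: ttccccacttcctgcccagctctggatcgg
The 250 bases before the RefSeq start near CCND3-203 held 2 GC boxes and 1 CCAAT box, and those near CCND3-213 held 5 GC boxes and no CCAAT box. The stretch for CCND3-213 was held to 30 bases for the same reason as that for CDKN2C-203. None of its 5 GC boxes lies wholly within the bases shown. CCND3-213 had 8.78 TPM under the rescue label, 9.93 under the shALKBH5 label and 9.76 under the shCtrl label in number 2. In number 1 it had 21.4 TPM under the rescue label, 24.6 under the shALKBH5 label and 22.4 under the shCtrl label. Its share of the TPM of CCND3 was 2.57 ± 0.153% in number 2 and 6.64 ± 0.408% in number 1 (SD, n = 3 each), and its fitted log2 fold change was -1.34 (SE 0.15, edgeR adjusted p = 0.0672). All transcripts from distal starts together made up 3.24% to 3.94% of the gene's TPM in number 2 and 7.49% to 8.34% in number 1. CCND3-203, the main transcript, averaged 321 ± 5.43 TPM in number 2 and 284 ± 2.12 TPM in number 1, a share of 87.1 ± 0.756% in number 2 and 82.7 ± 1.54% in number 1, with a fitted log2 fold change of 0.10 in counts (SE 0.08, adjusted p = 0.55).

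CDKN1A-201 carried 83.1 ± 1.17% of the TPM of CDKN1A in number 2 and 81.6 ± 2.19% in number 1, a difference within the larger of the 2 SDs. It averaged 98.2 ± 2.37 TPM in number 2 and 139 ± 1.06 TPM in number 1 (SD, n = 3 each). The fitted log2 fold change of CDKN1A-201 was -0.58 (SE 0.08, edgeR adjusted p = 0.0782). None of the 33 tested transcripts of the members passed in edgeR, which called 1 of 58909 transcripts (0.0017%) and gave 12218 an unadjusted p under 0.05. DESeq2 called 4 of the 33, CCND3-213, CDKN1A-201, CDKN2C-203 and CDKN2D-201, against 8.38% of all transcripts, and limma-voom called the same 4 and CDK4-208, against 5.98%. These transcripts were fitted after their values were seen. The quantification divides reads that fit several transcripts by estimate, so a share carries an error that the spread over libraries shows only in part.

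**Figure D4:**
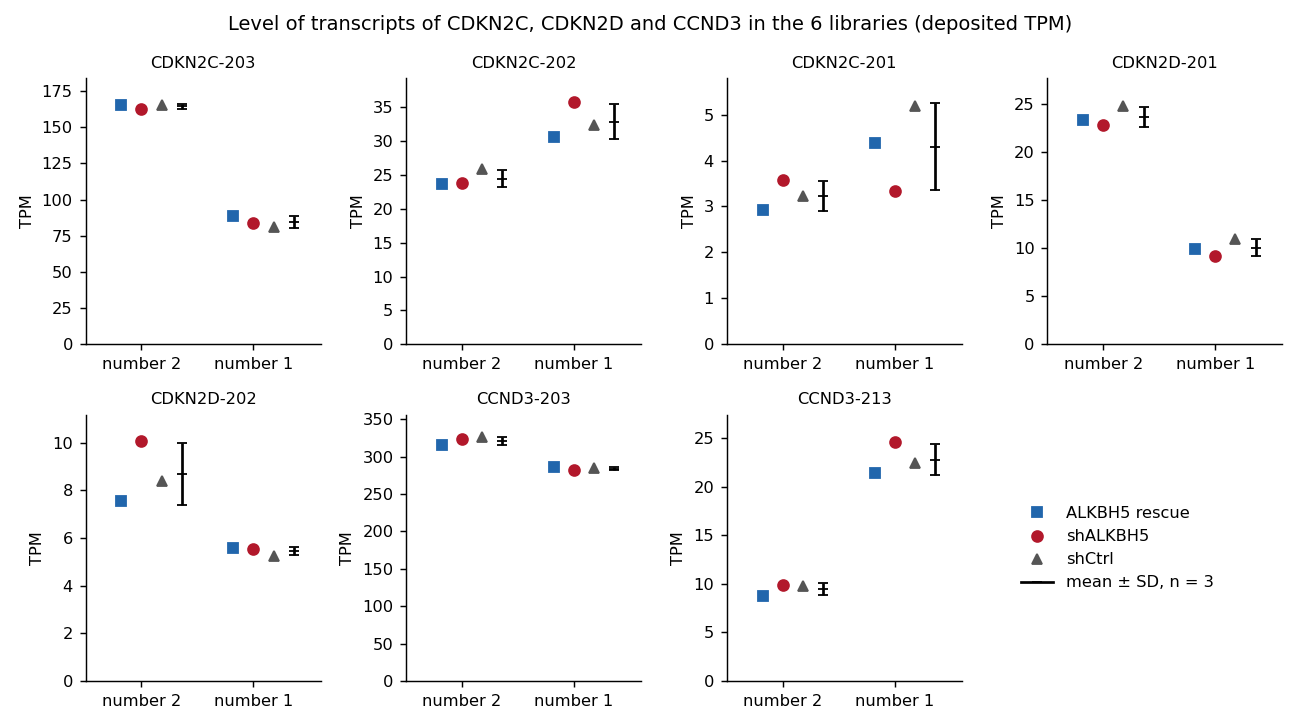
Deposited TPM of the transcripts of CDKN2C and CDKN2D and of 2 transcripts of CCND3 in each library, with number 2 left of number 1; black bars are the mean and SD of 3 libraries. CDKN2C-203 and CDKN2D-201 lie higher in number 2, and CDKN2C-202 and CCND3-213 lie lower.

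For the 3 members with the smallest p by number, the protein-coding genes with the most similar profile were found by Pearson's r of log2 CPM over the 6 libraries. The 10596 candidates averaged 5 CPM or more. They were CTSD, RHOT2 and NGRN for CDKN1A, EML2, CMTM3 and ADAP1 for CDKN2D, and MAP4K1, TMEM138 and NEDD8 for CDKN2C. The highest r was 0.9999 for CTSD with CDKN1A, 0.9998 for EML2 with CDKN2D and 0.9998 for MAP4K1 with CDKN2C. Over 6 libraries that fall into 2 sets by number, 2598 genes had r above 0.9 with CDKN1A, 1787 with CDKN2D and 1711 with CDKN2C.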

How the data were processed

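Polyadenylated RNA of 6 THP1 libraries was sequenced, and the submitters' processing notes name kallisto 0.43.1, CASAVA and the build hg38. The deposited tables give the authors' estimated counts and TPM for 179973 transcripts. Here estimated counts were summed per gene with GENCODE release 29 (GRCh38), which matched 163714 transcripts (91.0%), and rounded. The others, left out, took 3.13% to 3.32% of a library. Library totals ran from 14534386 to 24857373. Genes passing filterByExpr were tested with edgeR 4.0.16 (R 4.3.3, TMM, quasi-likelihood, Benjamini-Hochberg over 14497 genes), with 1 coefficient per label (3 residual degrees of freedom), or with label and replicate number (2). A standard error is the log2 fold change over the root of F. DESeq2 1.42.0 and limma 3.58.1 were alternatives, limma also on log2(TPM + 1).

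Samples were grouped by title. Deviations from the group means of same-numbered libraries correlated at 0.547, 0.629 and 0.685, and the first principal component (60.9% of the variance) separated the numbers, so the numbers, which come from the titles, were taken to pair the libraries. With the number as a block the biological coefficient of variation was 10.6%, against 27.7% without. No library was a copy of another (chi-square per gene at least 3.26).

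The members and gene lists were chosen with earlier results of these data known. Named genes are the members, ALKBH5, for each list up to 4 tested genes by p for number 2 against 1, and for 3 members the 3 most similar genes; 1 list and some of these genes are not reported here. AMBRA1, MTAP, DMRTA1, KLHL9 and the transcripts were named after their values were seen. The fits were tested on simulated data. CPM values are computed here from the counts with TMM-scaled library sizes.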

Additional observations from a re-analysis of the deposited data

Results flagged for a closer look

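CCND3 moved by replicate number in different directions under different labels. In log2 CPM, number 2 minus number 1, it was -0.16 under the rescue label, 0.021 under the shALKBH5 label and 0.13 under the shCtrl label. Each label has 1 library per number, so the difference between labels was not tested.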

How the results depend on the processing

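By number, CDKN2D, CDKN2C and CDKN1A kept their direction and call under every alternative run, CDK4 kept its direction, and 3 to 5 members were called. With 1 library left out, the fewest genes called were 3915, without the shALKBH5 library of number 1. The most were 6811, without the rescue library of number 1, and 4030 were called without the shALKBH5 library of number 2. With no group term and all 6 libraries kept, 7276 genes were called (50.2%). CCND3, uncalled throughout, turned to 0.033 with no filter, 0.10 on deposited TPM and 0.028 over protein-coding transcripts, and ran from -0.060 to 0.086 with 1 library left out. On deposited TPM the median of all genes was 0.11. Transcript calls of CDKN2C-203, CDKN2D-201, CCND3-213 and CDKN1A-201 were made by DESeq2 and limma-voom and not by edgeR.

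By label, with the replicate block, which pairs the libraries by number, genes called were 1 for shALKBH5 against shCtrl, 0 for ALKBH5 rescue against shALKBH5 and 1 for ALKBH5 rescue against shCtrl, and no member's call changed. With 1 library left out, with or without the block, genes called ran from 0 to 420 for shALKBH5 against shCtrl, from 0 to 1005 for ALKBH5 rescue against shALKBH5 and from 0 to 764 for ALKBH5 rescue against shCtrl, and members called from 0 to 1 for ALKBH5 rescue against shALKBH5. The alternatives that leave 1 library in a group assume that it varies as the others do. Some uncalled fold changes turned sign. On deposited TPM they were 0.0075 for CCND3 and 0.0063 for CDKN2C in shALKBH5 against shCtrl, -0.014 for CCND3, -0.11 for CDK4, -0.0062 for CDKN1A and 0.0038 for ALKBH5 in ALKBH5 rescue against shALKBH5, and -0.15 for CDK4 and 0.021 for CDKN2C in ALKBH5 rescue against shCtrl. With the replicate block they were 0.0032 for CDKN2D and 0.019 for ALKBH5 in ALKBH5 rescue against shALKBH5 and 0.012 for CDKN2C in ALKBH5 rescue against shCtrl. In the last comparison, no filter gave 0.025 for CDK6, 0.031 for CDKN1A and 0.016 for CDKN2C, protein-coding transcripts gave 0.045 for CDK6, 0.036 for CDKN1A and 0.021 for CDKN2C, and RLE size factors and DESeq2 gave 0.0065 and 0.0063 for CDKN1A. Leaving out 1 library gave log2 fold changes for shALKBH5 against shCtrl of -0.17 to 0.033 for CCND3, -0.28 to 0.018 for CDK4, -0.44 to 0.20 for CDKN1A, -0.12 to 0.21 for CDKN1B, -0.43 to 0.37 for CDKN2C, -0.70 to 0.48 for CDKN2D, -5.49 to 5.13 for ALKBH5. For ALKBH5 rescue against shALKBH5 they ran -0.092 to 0.14 for CCND3, -0.18 to 0.40 for CDK4, -0.35 to 0.43 for CDKN1A, -0.14 to 0.10 for CDKN1B, -0.23 to 0.41 for CDKN2C, -0.46 to 0.55 for CDKN2D, -5.24 to 5.31 for ALKBH5. For ALKBH5 rescue against shCtrl they ran -0.16 to 0.073 for CCND3, -0.30 to 0.28 for CDK4, -0.29 to 0.21 for CDK6, -0.42 to 0.32 for CDKN1A, -0.15 to 0.18 for CDKN1B, -0.36 to 0.41 for CDKN2C, -0.55 to 0.43 for CDKN2D, -5.37 to 5.08 for ALKBH5. The cause of these changes was not tested. The 7 tested members had at least 183 counts in every library, and CCND2, CDKN2A and CDKN2B at most 3.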

Other observations

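Some minor transcripts of the members also differed in level by number, as values with no call in edgeR. CDKN1A-207, a transcript of CDKN1A with no coding frame in the annotation, averaged 14.4 ± 2.70 TPM in number 2 and 25.8 ± 3.34 TPM in number 1 (SD, n = 3 each). CDK4-208, which retains an intron of CDK4, averaged 4.62 ± 0.552 TPM in number 2 and 9.76 ± 0.204 TPM in number 1, or 2.51% of the TPM of CDK4 in number 2 and 4.17% in number 1. CDK6 was divided between CDK6-201, with 47.6 ± 8.02% of its TPM in number 2 and 42.1 ± 4.48% in number 1, and CDK6-202, with 41.4 ± 5.19% in number 2 and 40.5 ± 5.21% in number 1.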
